A study of Mus musculus with 6 samples.

Results

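The miR-29 family was followed in miRNA sequencing of extracellular vesicles, membrane-bound particles released by cells, isolated from mouse brain. Its members were taken by name: every entry of the deposited expression table for miR-29a, miR-29b or miR-29c, from either arm of the hairpin, which gave 7 of 1926 listed miRNAs. By their labels, 3 libraries came from mice that had undergone status epilepticus (SE), which is a prolonged seizure, and 3 from control mice (CON). A time of 24 hr stands in the title of the series. Strain, age, sex, the agent that induced the seizures and the number of animals behind each library are not given in the sources used here, so p-values measure the spread between these libraries only, which may be technical.

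microRNAs are short RNAs that guide Argonaute proteins to messenger RNAs carrying a match to the miRNA seed, which lowers the stability and translation of those messages. In mice the miR-29 family is encoded at a pair of loci, one with miR-29a and miR-29b-1 and one with miR-29b-2 and miR-29c, and its level in the brain increases as neurons mature. Its known targets include the DNA methyltransferases Dnmt3a and Dnmt3b, collagens and other matrix proteins, and in neurons the pro-apoptotic BH3-only proteins. In the brain the family is known from both astrocytes and mature neurons.

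The 3p arms, which are the guide strands of the family, are shown because their shared seed (bases 2 to 8, in capitals) defines the family and because the differences between them lie outside it. Sequences are from RefSeq, build GRCm38.p6, and run 5′ to 3′.
miR-29a-3p: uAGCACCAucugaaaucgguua
miR-29c-3p: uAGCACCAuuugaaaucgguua
miR-29b-3p: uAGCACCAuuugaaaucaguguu
These 3 were the only holders of the seed AGCACCA among the 1679 mature mouse miRNA names of the RefSeq table. Counted from the 5′ end, miR-29c-3p differs from miR-29a-3p by the single substitution C10U. miR-29b-3p differs from miR-29c-3p by G18A, U21G and A22U and has 1 more base at its 3′ end. The 3′ end of miR-29b-3p reads AGUGUU, a hexamer known from human cells to direct miR-29b to the nucleus. On the mature strand, it occurs in 12 of the 1679 names (0.715%), and in 1 of the 7 miR-29 names. A read of miR-29a-3p with a sequencing error at base 10 can be a perfect read of miR-29c-3p, and the number of mismatches allowed in the authors' counting is not stated.

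The 5p arms, the passenger strands, do not share a seed, and 2 of them tell the miR-29b loci apart, which miR-29b-3p, identical from both, cannot.
miR-29a-5p: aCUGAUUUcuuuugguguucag
miR-29b-1-5p: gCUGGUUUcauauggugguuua
miR-29b-2-5p: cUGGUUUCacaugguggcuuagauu
miR-29c-5p: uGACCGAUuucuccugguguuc
In GRCm38.p6 the Mir29a hairpin lies at chr6:31062660-31062747 and the Mir29b-1 hairpin at chr6:31063023-31063093, both on the minus strand with 275 bases between them. The Mir29b-2 hairpin lies at chr1:195037040-195037120 and the Mir29c hairpin at chr1:195037547-195037634, both on the plus strand with 426 bases between them. In GENCODE M21, the chromosome 1 pair lies whole in an exon of a retained-intron transcript of the noncoding gene A330023F24Rik, and opposite to an exon of the complement regulator Cd46 on the minus strand. The Mir29b-1 hairpin shares 2 bases with an exon of the lincRNA Gm27019. The submitters' processing notes name build mm9, so these positions were not used with the deposited values.

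The values are RPM, reads per miRNA after every library is brought to the same total of miRNA reads. The libraries held 6016533 to 10845434 miRNA reads in the SE group and 5482407 to 6504884 in the CON group. In the deposited table the CON values do not stand under their own miRNA names, and each CON row was put back under its name through the base mean that the authors' deposited fold-change table lists for each miRNA. For each of the 7 members a single CON row matched. The CON reads of miR-29a-3p were listed under miR-7b-5p, those of miR-29c-3p under miR-1983 and those of miR-29b-3p under miR-29c-3p. Every CON value given here is the value as put back. The SE and CON labels of the columns were taken as they stand, and every direction given here rests on them. miR-21a-5p, known to increase in reactive glia, and the inflammation-induced miR-155-5p were lower in the libraries labelled SE, as given below. Whether the labels are right was not tested.

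miR-29a-3p carried most of the family. It stood at 6802, 6458 and 7288 RPM in SE replicates 1, 2 and 3, against 11347, 7703 and 10581 RPM in CON replicates 1, 2 and 3. All 3 SE values were lower than all 3 CON values, and CON replicate 2 was the nearest to them. Over the 6 libraries it ranked 14 among all miRNAs by mean RPM, at 17 in the SE group and 14 in the CON group.

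miR-29c-3p, the product of the chromosome 1 locus that is 1 base away from miR-29a-3p, stood at 649, 603 and 569 RPM in the SE libraries, against 1027, 656 and 1064 RPM in the CON libraries. The groups did not overlap, but the highest SE value and CON replicate 2 were close. miR-29b-3p, made from both loci, stood at 617, 538 and 406 RPM in the SE libraries, against 664, 517 and 1009 RPM in the CON libraries. Its groups overlapped, with CON replicate 2 below SE replicates 1 and 2. miR-29c-3p and miR-29b-3p ranked 53 and 57 over the 6 libraries. The levels of these neighbours in the order lay within the spread between libraries, and the ratio of miR-29b-3p to miR-29c-3p ran from 0.713 to 0.951 in SE and from 0.646 to 0.948 in CON libraries.

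**Figure D1:**
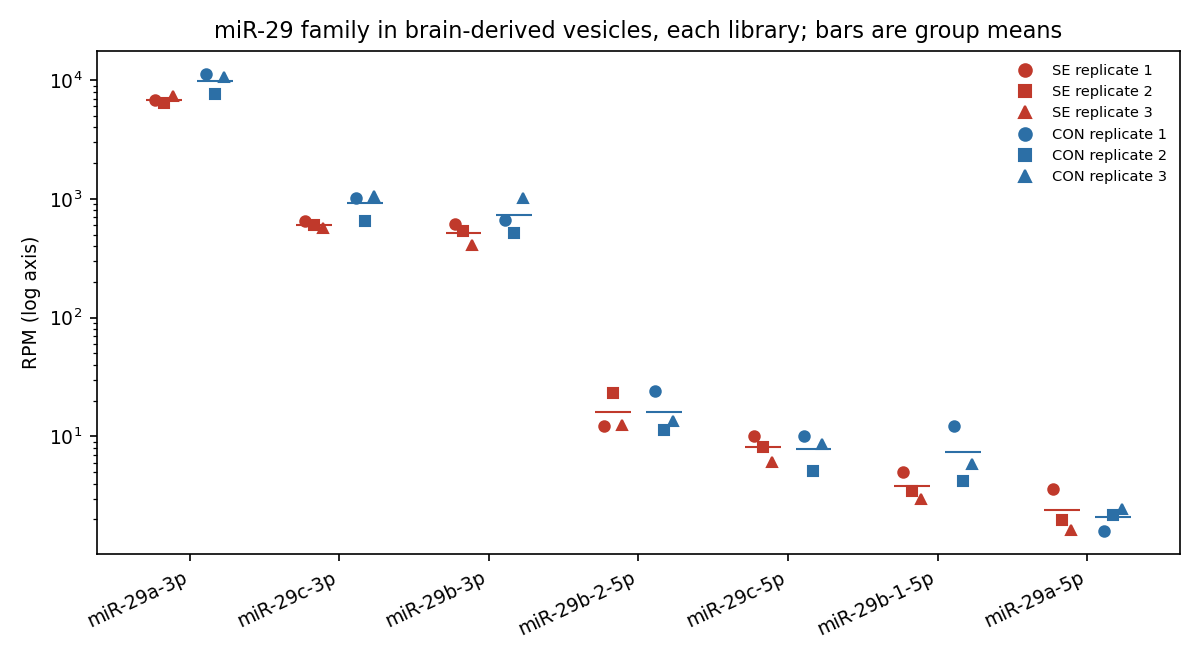
RPM (log axis) of the 7 miR-29 entries in each library, with SE left of CON for each miRNA; points are libraries and bars are group means. The 3p arms lie between 406 and 11347 RPM and the 5p arms between 1.61 and 23.95 RPM.

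The 5p arms were rare. miR-29b-2-5p stood at 12.3, 23.4 and 12.6 RPM in the SE libraries, against 23.95, 11.3 and 13.4 RPM in the CON libraries, and the groups overlapped. miR-29c-5p ranged from 6.13 to 10.1 RPM in SE and from 5.11 to 10.01 RPM in CON libraries. miR-29a-5p, the partner of the most abundant member, was the lowest of all, at 1.64 to 3.596 RPM in SE libraries, against 1.61 to 2.46 RPM in CON libraries, from 9 to 39 reads a library.

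miR-29b-1-5p, the passenger strand that reports on the chromosome 6 copy of miR-29b, stood at 4.98, 3.49 and 2.99 RPM in the SE libraries, against 12.2, 4.195 and 5.84 RPM in the CON libraries. Its groups overlapped, since SE replicate 1 was higher than CON replicate 2, and CON replicate 1 was far above the other CON values. These levels rest on 20 to 68 reads a library. In every library miR-29b-2-5p was more abundant than miR-29b-1-5p, by a ratio of 2.46, 6.71 and 4.2 in the SE libraries and 1.97, 2.696 and 2.29 in the CON libraries. miR-29b-2-5p thus made up 79.6% ± 8.02 of the miR-29b 5p reads in SE libraries and 69.6% ± 3.302 in CON libraries (SD, n = 3 each). This was the reverse of the 3p arms specific to each locus, of which miR-29a-3p, from chromosome 6, was 9.94 to 12.8 times as abundant as miR-29c-3p, from chromosome 1, over the 6 libraries. Their 5p arms had the order of the miR-29b 5p arms. miR-29c-5p was above miR-29a-5p in every library, with means of 8.01 and 2.25 RPM over the 6. In reads, the reversal thus lay between the arms. How evenly the different sequences were captured was not tested.

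Together the 7 entries took 0.763% to 0.829% of the miRNA reads in the SE libraries and 0.8899% to 1.31% in the CON libraries, ranges that did not overlap. Of the reads of the 3p arms, miR-29a-3p held 85.8% ± 2.07 in SE libraries and 85.8% ± 1.903 in CON libraries (SD, n = 3 each). miR-29c-3p held 7.62% ± 0.634 and miR-29b-3p 6.54% ± 1.44 in SE libraries, against 7.89% ± 0.511 and 6.299% ± 1.497 in CON libraries (SD, n = 3 each). The makeup of the family was thus close in the 2 groups, while its share of all miRNA reads, set mostly by miR-29a-3p, was lower in the SE libraries. Among the 290 miRNAs that averaged 10 RPM or more, 13.4% had SE values all lower than the CON values. As a share of the reads outside the let-7 family, the groups overlapped, as given below. In vesicle preparations, fewer vesicles from a cell type and less of a miRNA per vesicle cannot be told apart.

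The comparison of SE with CON asks which miRNAs differ in abundance between the vesicle preparations. It was made with limma on log2(RPM + 1) over the 290 miRNAs that averaged 10 RPM or more, of which 4 are members: the 3p arms and miR-29b-2-5p. Of these, 0 passed at an adjusted p under 0.05, where 1.03% of all 290 passed, and 2 had an unadjusted limma p under 0.05, where 9.31% of all did. With limma-voom on the reads 0 members passed as well, where 3 of all 290 did (1.03%). Of the 4, 2 had SE values all lower than the CON values, where 13.4% of all 290 did. The other 3 members were under the filter. Without the filter they were tested among 775 miRNAs, of which 0.516% passed, and 0 members did.

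miR-29a-3p averaged 6849 ± 417 RPM in SE libraries, against 9877 ± 1921 RPM in CON libraries (SD, n = 3 each), a ratio of SE to CON means of 0.693. Its log2 difference, SE minus CON, was -0.51 with a standard error of 0.15 and a 95% interval from -0.83 to -0.19. The limma p was 0.00329 before and 0.191 after Benjamini-Hochberg adjustment over the 290 miRNAs, the fifth lowest p of all. miR-29c-3p averaged 607 ± 39.8 RPM in SE libraries, against 916 ± 226 RPM in CON libraries (SD, n = 3 each), a log2 difference of -0.56 with an interval from -0.99 to -0.13 and a limma adjusted p of 0.301.

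miR-29b-3p averaged 520 ± 106 RPM in SE libraries, against 730 ± 252 RPM in CON libraries (SD, n = 3 each). Its log2 difference of -0.45 had an interval from -0.95 to 0.05 and a limma adjusted p of 0.608. The 3 guide strands thus had differences of like size and sign, none of which passed the adjusted threshold. miR-29b-2-5p had a log2 difference of -0.002 with an interval from -0.67 to 0.67. Without the filter, limma gave -0.71 (standard error 0.41) for miR-29b-1-5p, 0.05 (standard error 0.33) for miR-29c-5p and 0.11 (standard error 0.36) for miR-29a-5p, and adjusted p of 0.891, 0.977 and 0.956. Over the 290 tested miRNAs, 59.7% had a difference below 0 and the median was -0.07.

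**Figure D2:**
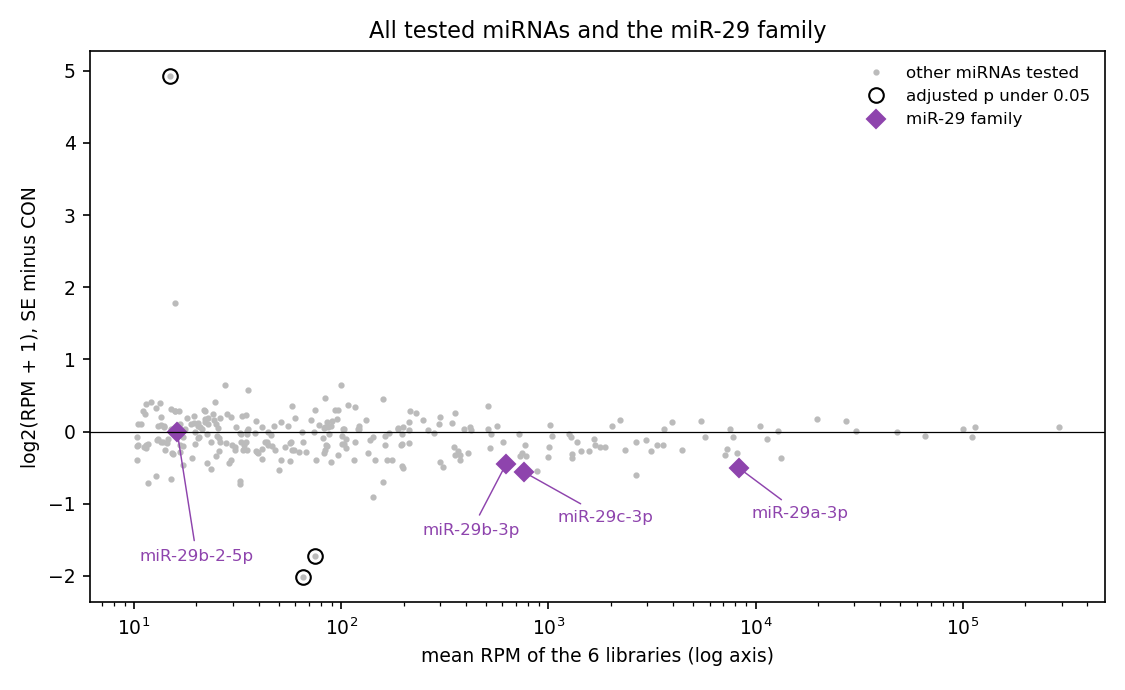
Difference in log2(RPM + 1), SE minus CON, against mean RPM (log axis) for the 290 tested miRNAs; each point is a miRNA, diamonds are the miR-29 family and open circles mark an adjusted p under 0.05. The 3p arms lie between -0.56 and -0.45, and miR-29b-2-5p lies at -0.002.

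RPM depend on the rest of the library, and most reads were of the let-7 family with miR-98, which took 80.1% ± 1.35 of all reads in SE libraries and 78.3% ± 0.943 in CON libraries (SD, n = 3 each). 2 other scalings were therefore set beside the RPM. With median-of-ratios scaling the median log2 difference of all 290 miRNAs moved to 0.03, and scaled to the reads outside let-7 it moved to 0.05. miR-29a-3p had -0.41 and -0.38 on these scales, miR-29c-3p -0.46 and -0.44, and miR-29b-3p -0.35 and -0.33, so all 3 kept their sign. The limma adjusted p of these values ran from 0.456 to 0.693. miR-29a-3p no longer separated the groups: scaled to the reads outside let-7, it stood at 6634, 6756 and 8140 in SE libraries, against 10484, 7745 and 9993 in CON libraries. miR-29c-3p still did, with 633, 630 and 636 in SE libraries, against 949, 659 and 1005 in CON libraries. Over all 290 miRNAs, the values did not overlap for 39 lower (13.4%) and 4 higher (1.38%) in SE libraries as RPM, for 21 lower (7.24%) and 14 higher (4.83%) with median-of-ratios scaling, and for 21 lower (7.24%) and 16 higher (5.52%) when scaled to the reads outside let-7. Of the reads outside let-7 the family held 3.802% to 4.46% in SE and 4.31% to 5.82% in CON libraries, which overlapped.

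The size of these differences depended on CON replicate 2. It was the lowest CON library for 6 of the 7 members, miR-29a-5p being the exception, and for 125 of the 290 tested miRNAs (43.1%). Without it, miR-29a-3p had a log2 difference of -0.68 with a limma adjusted p of 0.00991, and miR-29c-3p had -0.79 with 0.0411, so that 2 of the 4 members passed where 2.07% of all did. miR-29b-3p then had -0.67 with an adjusted p of 0.231. For each of these members, leaving out the lowest CON library had to widen the difference. The widening was thus fixed by the library left out, and the passes are no support for a change. Leaving out any of the other 5 libraries, limma gave differences from -0.56 to -0.40 for miR-29a-3p and from -0.61 to -0.44 for miR-29c-3p, and none passed. miR-29b-3p moved more, to -0.19 without CON replicate 3 and -0.29 without SE replicate 3.

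**Figure D3:**
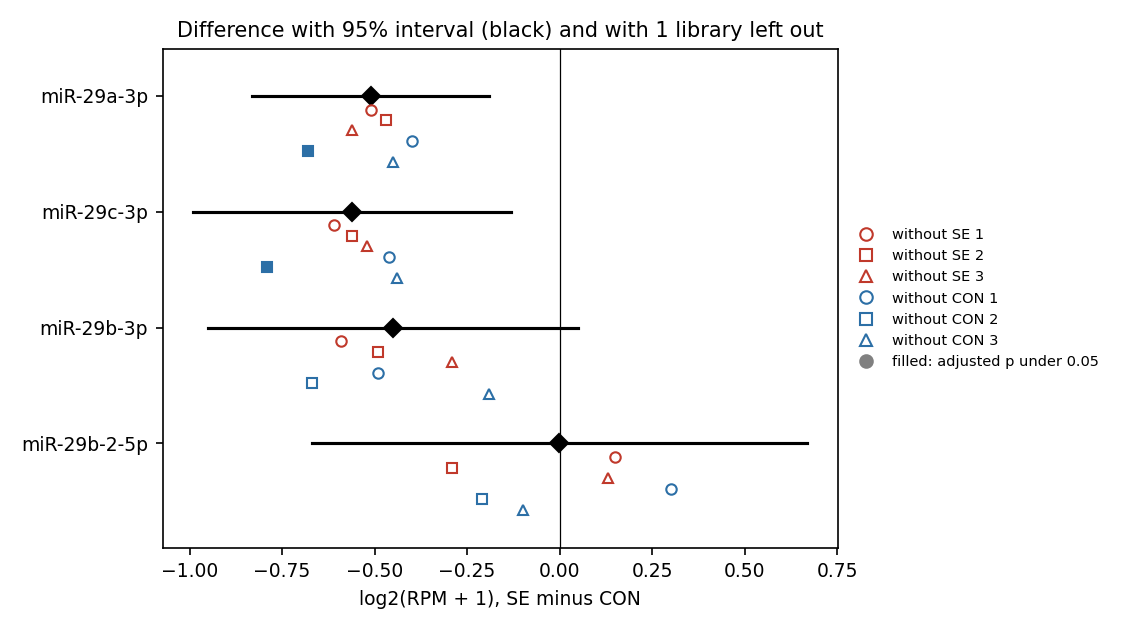
Difference in log2(RPM + 1), SE minus CON, for the 4 tested members: black diamonds with bars give all 6 libraries with the 95% interval, and coloured points give the value with 1 library left out, filled where the adjusted p is under 0.05. The filled points are miR-29a-3p at -0.68 and miR-29c-3p at -0.79, both without CON replicate 2.

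The coefficient of variation of miR-29a-3p was 6.09% in SE and 19.4% in CON libraries, and that of miR-29c-3p was 6.56% in SE and 24.7% in CON libraries. For the 63 miRNAs that averaged 500 RPM or more the median was 10.8% in SE and 12.4% in CON libraries. miR-29a-3p and miR-29c-3p thus spread less than that median in the SE group and more in the CON group. miR-29b-3p, at 20.4% in SE and 34.6% in CON libraries, spread more than the median in both. With 3 libraries a group these spreads are descriptions, with no test.

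Ratios of members within a library do not depend on the scaling, and 7 of them were compared with exact two-sided permutation tests, where groups of 3 and 3 libraries allow no p under 0.1. The ratio of miR-29a-3p to miR-29c-3p was 10.5, 10.7 and 12.8 in SE libraries, against 11.04, 11.7 and 9.94 in CON libraries. The log2 ratio differed by 0.05 between SE and CON, less than the SD of 0.16 and 0.12 within them (exact permutation p = 0.7). The ratios of miR-29b-3p to miR-29a-3p and to miR-29c-3p differed by 0.06 and 0.11 on the log2 scale (exact permutation p = 1 and 0.6), and their groups overlapped as well. A p that misses the threshold does not show that the ratios are alike.

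Among the ratios of the arms, that of miR-29c separated the groups. miR-29c-3p was 64.6, 73.98 and 92.9 times as abundant as its partner miR-29c-5p in the SE libraries, against 103, 128 and 124 times in the CON libraries. All 3 SE ratios were below all 3 CON ratios, a log2 difference of -0.63 with an exact permutation p of 0.1, the smallest that this design allows, and 0.7 after adjustment over the 7 ratios. The passenger strand behind this ratio had 28 to 109 reads a library. For miR-29a the ratio of 3p to 5p was 1892, 3238 and 4432 in SE libraries, against 7052, 3519 and 4302 in CON libraries, which overlapped (log2 difference -0.66, exact permutation p = 0.3). That difference ran from -0.94 without SE replicate 3 to -0.32 without SE replicate 1. The ratio of miR-29b-3p to miR-29b-1-5p was 124, 154 and 136 in SE libraries, against 54.6, 123 and 173 in CON libraries, and that to miR-29b-2-5p was 50.3, 22.9 and 32.3 in SE libraries, against 27.7, 45.7 and 75.4 in CON libraries. Neither separated the groups, with log2 differences of 0.39 and -0.45 and exact permutation p of 0.7 and 0.5. With single libraries left out, the difference for miR-29b-2-5p ran from -0.81 without CON replicate 1 to -0.09 without CON replicate 3, and that for miR-29b-1-5p was -0.09 without CON replicate 1 and 0.74 without CON replicate 3.

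**Figure D4:**
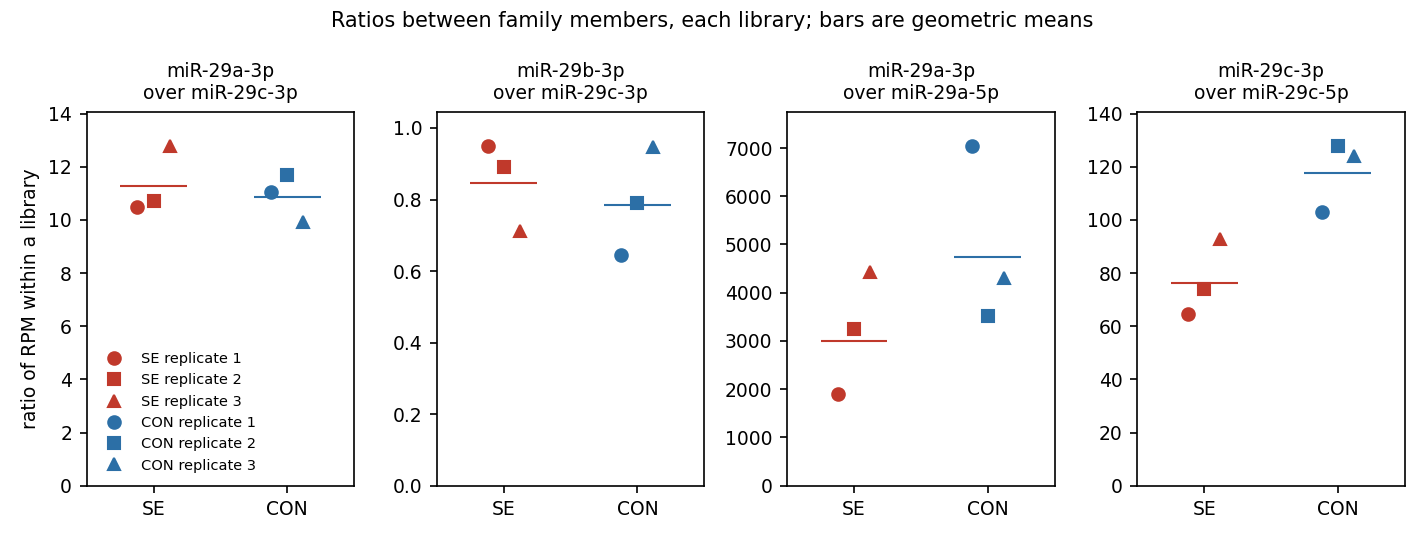
Ratios of RPM between miR-29 members within each library, with SE left of CON; points are libraries and bars are geometric means. The ratio of miR-29c-3p to miR-29c-5p lies between 64.6 and 92.9 in SE and between 103 and 128 in CON libraries, while the other ratios overlap.

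In the authors' deposited table the guide strands come in the same order of size of difference. Its header does not name the order of the groups. Under the column labels of the RPM values, its values run the other way, CON over SE. A positive value thus means lower in the libraries labelled SE, as far as those labels hold. In the authors' deposited table miR-29a-3p has a log2 fold change of 0.41 (standard error 0.17), miR-29c-3p 0.48 (standard error 0.18) and miR-29b-3p 0.39 (standard error 0.25). Their p-values in the authors' deposited table were 0.0156, 0.00839 and 0.122, and their adjusted p-values 0.6697, 0.499 and 0.975, where 8 of 772 miRNAs (1.04%) were called. The 5p arms had 0.84 for miR-29b-1-5p, -0.11 for miR-29b-2-5p, -0.14 for miR-29c-5p and -0.29 for miR-29a-5p in the authors' deposited table, none of them called. The CON values were put back with the base means of this table, so it is not independent evidence.

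Profiles over the 6 libraries were compared by the root mean square difference of log2(RPM + 1) values, each centred on its own mean, over the 289 other tested miRNAs for each member. Neighbours were chosen for likeness over these same 6 libraries. That their values order the libraries as a member does follows from the choice. The 5 miRNAs outside the family most like miR-29a-3p were miR-1983 at 0.061, miR-708-3p at 0.107, miR-369-3p at 0.113, miR-30e-3p at 0.115 and miR-99a-5p at 0.116. Over the 286 miRNAs outside the family the median was 0.351. With median-of-ratios scaling, 4 of these 5 stayed among the nearest 5, and miR-99a-5p did not. miR-369-3p belongs to the imprinted Dlk1-Dio3 cluster, and miR-99a-5p is encoded beside let-7c. The nearest of them, miR-1983, stood at 683, 680 and 781 RPM in SE libraries, against 1217, 871 and 1058 RPM in CON libraries, so that its groups did not overlap. Within the family, miR-29c-3p ranked 8 and miR-29b-3p 110 of the 289 in likeness to miR-29a-3p.

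The 5 miRNAs outside the family most like miR-29c-3p were miR-335-5p at 0.104, miR-338-3p at 0.117, miR-708-3p at 0.136, miR-369-3p at 0.137 and miR-126a-5p at 0.140, with a median of 0.383 over the 286. miR-335-5p comes from an intron of the imprinted gene Mest, miR-338-3p is known from myelinating cells, and miR-126a-5p is the partner arm of the endothelial miR-126a-3p. miR-335-5p stood at 2069, 2128 and 2007 RPM in SE libraries, against 3206, 2309 and 4120 RPM in CON libraries. CON replicate 2 was nearest to the SE values, as the choice of a near profile makes likely. miR-29a-3p ranked 3 and miR-29b-3p 26 of the 289 in likeness to miR-29c-3p. None of these neighbours passed in limma, with adjusted p from 0.231 to 0.768.

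**Figure D5:**
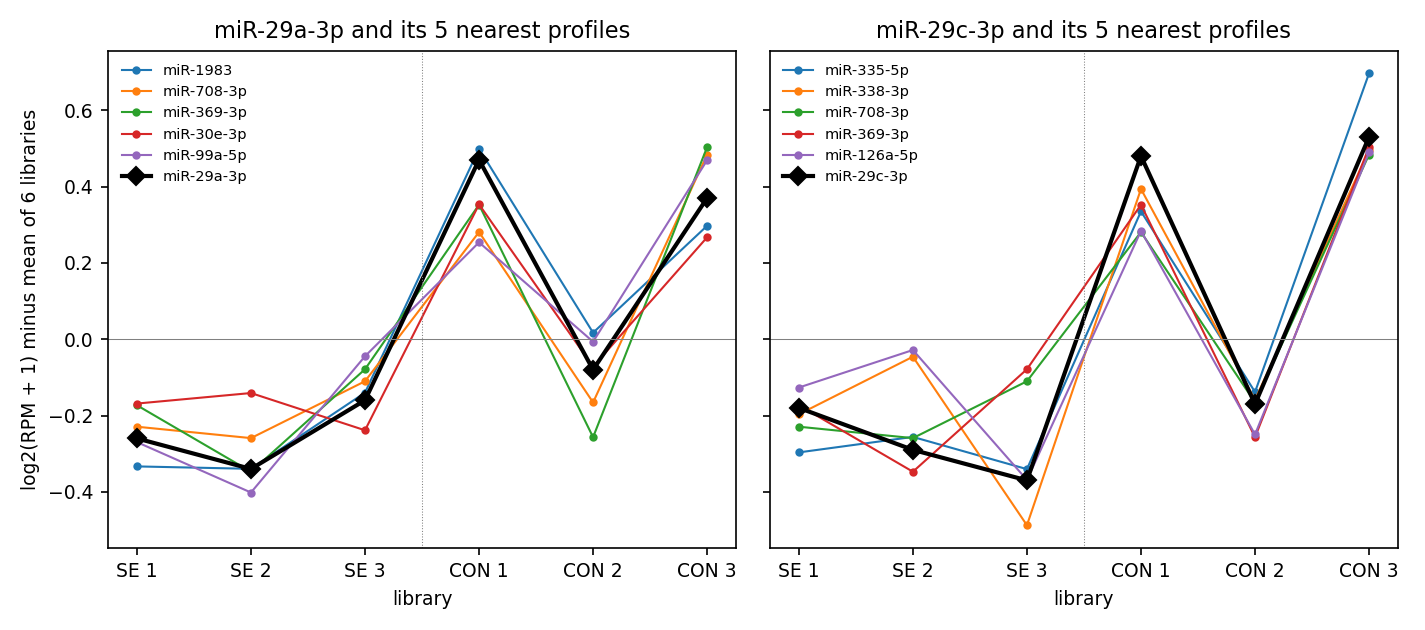
Log2(RPM + 1) minus the mean of the 6 libraries for miR-29a-3p and miR-29c-3p (black diamonds) and for the 5 miRNAs outside the family with the nearest profiles (coloured). Lines join the libraries for reading only. CON replicate 2 lies below CON replicates 1 and 3 in each profile, and the coloured profiles were chosen for likeness over these same libraries.

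Other miRNAs that share a cell type or a set of targets with miR-29 were read from lists. Of 6 astrocyte-enriched miRNAs outside the family, all tested, 0 passed in limma, and their median log2 difference was -0.06, beside -0.07 over all 290. The most abundant, miR-26a-5p and miR-24-3p, had 0.01 (standard error 0.15) and -0.12 (standard error 0.15), and the list summed to 16240 to 21531 RPM in SE libraries, against 17367 to 20547 RPM in CON libraries. Of 7 entries known to act on DNA methyltransferases or on the Polycomb enzyme Ezh2, 5 were tested and 0 passed, with a median of -0.19. miR-26a-5p, which acts on Ezh2, led this list too, followed by its paralog miR-26b-5p at -0.27 (standard error 0.15), whose SE values were all lower than its CON values. In both lists, 0 members had an unadjusted limma p under 0.05 and 0 passed in limma-voom.

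Of 11 miRNAs linked to TGF-beta signalling or matrix, 4 were tested, with a median of -0.34. At an unadjusted limma p under 0.05 there were 2, miR-21a-5p and miR-429-3p, where 9.31% of all 290 passed. The same 2 had SE values all lower than the CON values, where 13.4% of all did. After adjustment 1 fell, where 1.03% of all passed: miR-21a-5p, a miRNA known to increase in reactive glia. It averaged 33.8 ± 2.11 RPM in SE libraries, against 116 ± 32.5 RPM in CON libraries (SD, n = 3 each), a log2 difference of -1.72 with a limma adjusted p of 0.000105. miR-214-3p of this list was at 0 in all 6 libraries.

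Markers of brain cells and blood were read beside the family. The neuronal miR-124-3p, miR-9-5p, miR-128-3p and miR-138-5p summed to 18805 to 23100 RPM in SE libraries, against 20897 to 25089 RPM in CON libraries, and 0 of 4 passed in limma. Their log2 differences went both ways, with a median of -0.05: miR-9-5p had -0.24 and miR-128-3p -0.33, while miR-124-3p had 0.16 and miR-138-5p 0.14. miR-9-5p, at 6649 ± 152 RPM in SE libraries, against 7927 ± 1307 RPM in CON libraries (SD, n = 3 each), and miR-128-3p, at 6281 ± 224 RPM in SE libraries, against 8020 ± 1945 RPM in CON libraries (SD, n = 3 each), were the most abundant. The 3 oligodendrocyte markers summed to 253 to 332 RPM in SE libraries, against 310 to 452 RPM in CON libraries, 0 of the 2 tested passed, with a median of -0.21, and miR-219a-5p was at 0 in CON libraries. miR-338-3p and miR-219a-2-3p led this list, with means of 256 and 41.5 RPM in SE libraries, against 363 and 41.1 RPM in CON libraries. The endothelial miR-126a-3p and miR-126a-5p summed to 4355 to 5240 RPM in SE libraries, against 4817 to 6715 RPM in CON libraries, and 0 of 2 passed, with a median of -0.30. The red cell markers miR-451a and miR-144-3p were at 0 in SE libraries, and the list summed to 16.8 to 32.2 RPM in SE libraries, against 19.1 to 29.5 RPM in CON libraries, with 0 of 1 tested passing, miR-486a-5p/486b-5p. The 4 microglia and leukocyte markers summed to 63.2 to 83.1 RPM in SE libraries, against 157 to 171 RPM in CON libraries. Of these, 1 of the 2 tested fell, miR-155-5p, an inflammation-induced miRNA of immune cells. Its log2 difference was -2.02, with a limma adjusted p of 4.36e-06. Its mean was 25.3 RPM for SE, against 105 RPM for CON, and the gap between the sums lay mostly in it. For miR-142a-5p, miR-142a-3p and miR-223-3p the groups overlapped. Their SE means were 35.2, 9.68 and 6.24 RPM, and their CON means were 43.7, 10.3 and 6.76 RPM. At an unadjusted limma p under 0.05 there was 1 oligodendrocyte member and 1 microglia and leukocyte member, where 9.31% of all 290 passed. There were 0 in the neuronal, endothelial and red cell lists, where limma-voom also called 0. The part of these markers in the miR-29 values was not tested.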

How the data were processed

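Column extraction with DNase and the QIAseq miRNA library kit were used, per the labels' protocols. Aligner, counter, annotation and use of molecular identifiers are not given in the sources used here; the submitters' processing notes name mm9 and DESeq2. The authors' deposited RPM table scales reads to a fixed total per library over 1926 miRNAs. The authors' deposited table of fold changes holds, per the file headers, base means (a signal of normalized reads), log2 fold changes, a Wald score and p-values. It was copied, not refitted.

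All deposited RPM values were whole multiples, within 0.01, of a step in their column, the lowest value being taken as 2 reads; depths and reads come from this step. Both sets of columns descend down the file. The CON total of each miRNA was the base mean times 6 less its normalized SE reads. Each of the 687 totals above 0 had a CON row that agreed to a relative 1e-05. With the CON size factors in any of 5 other orders, at most 3 of 312 matched.

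limma-trend (limma 3.58.1, R 4.3.3) was run on log2(RPM + 1), a scale that understates changes of low miRNAs, for means of at least 10 RPM, with two-sided Benjamini-Hochberg adjusted p under 0.05. It was tested on simulated data. Ratios used exact permutation tests (scipy 1.17.1). Tables and figures used Python 3.11.15, numpy 2.4.6, pandas 2.3.3 and matplotlib 3.10.9. Other settings tried were a pseudocount of 0.5 or 5 RPM, no filter, a filter of 50 RPM, both other scalings, the replicate number as a block, limma-voom on recovered reads, each library left out, and the CON rows as deposited. Named miRNAs are all members, the 5 nearest profiles to miR-29a-3p and miR-29c-3p, and list members that passed or otherwise the 2 most abundant; further names in the text were chosen after their values were seen. Members and lists were chosen with earlier results of these data known. The 95% intervals are limma's and rest on the spread between libraries. A count of reads beside a value bears on counting error only, and whether reads are independent molecules is not known here.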

Additional observations from a re-analysis of the deposited data

How the results depend on the processing

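Of the settings run, only leaving out CON replicate 2 changed a call of a member. Without CON replicate 2, limma called 6 miRNAs in place of 3, and 2 members in place of 0: miR-29a-3p at -0.68 and miR-29c-3p at -0.79. CON replicate 2 was the lowest CON library for both, so its omission had to widen their differences. Without CON replicate 3 limma called 5 miRNAs and 0 members. Over all 6 omissions the count ran from 3 to 6 for all miRNAs and from 0 to 2 for members, and the log2 difference from -0.68 to -0.40 for miR-29a-3p, -0.79 to -0.44 for miR-29c-3p, -0.67 to -0.19 for miR-29b-3p and -0.29 to 0.30 for miR-29b-2-5p. The difference in family share ran from -0.488 to -0.278 percentage points, around -0.355 with all libraries. The log2 ratios ran from -0.04 to 0.11 for miR-29a-3p over miR-29c-3p, -0.10 to 0.27 for miR-29b-3p over miR-29a-3p, -0.03 to 0.24 for miR-29b-3p over miR-29c-3p, -0.94 to -0.32 for miR-29a-3p over miR-29a-5p, -0.09 to 0.74 for miR-29b-3p over miR-29b-1-5p, -0.81 to -0.09 for miR-29b-3p over miR-29b-2-5p and -0.77 to -0.50 for miR-29c-3p over miR-29c-5p. miR-29b-2-5p changed sign to 0.10 with median-of-ratios scaling and to 0.12 scaled to reads outside let-7. Of the reads outside let-7 the family's share differed by -1.26 percentage points, since the total is smaller. With CON rows left under their deposited names, limma called 0 of 289 miRNAs, the share differed by -0.127, and miR-29a-3p and miR-29c-3p had -0.20 and -0.21, further from -0.51 and -0.56 than without any one library. miR-29b-3p had 0.04, and the log2 ratios of miR-29b-3p over miR-29b-1-5p and miR-29b-2-5p were -0.12 and 0.08; that table pairs names with reads of other miRNAs. With the replicate number as a block, 3 miRNAs and 0 members were called, and the 3p arms of miR-29a, miR-29c and miR-29b had the same differences of -0.51, -0.56 and -0.45 with adjusted p of 0.198, 0.318 and 0.716. The deviations of same-numbered SE and CON libraries had correlations of -0.42, -0.25 and 0.04, so the numbers were not taken as pairs. Pseudocounts, filters and limma-voom changed no call of a member. The 5p arms rest on 9 to 141 reads a library.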
